A study of Caenorhabditis elegans with 20 samples.

Results

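The cyp-35 subfamily of Caenorhabditis elegans is a set of 10 protein-coding cytochrome P450 genes, cyp-35A1 to cyp-35A5, cyp-35B1 to cyp-35B3, cyp-35C1 and cyp-35D1. They were taken by symbol from the WormBase IDs of the count table, which made 10 of 46904 rows, and the rule uses no measured value. The study sequenced poly(A) RNA of whole young adults that had, or had not, been raised with the mold Penicillium brevicompactum. The 4 groups were ns889 animals with the mold, ns889 animals without it, wild-type (WT) animals with the mold and WT animals without it, with 3 replicates each. All were grown from L1 arrest for about 48 hours at 20 C on plates seeded with the bacterium Escherichia coli OP50, so the mold came on top of the usual food. The labels give ns889 as a genotype only and name neither the gene altered nor the age of the mold lawn. Whether the replicates of a group came from independent cultures is not said, and the p-values therefore refer to the spread of these libraries, which may in part be technical. In RNA of whole animals, fewer cells of a type and less RNA per cell cannot be told apart.

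Cytochrome P450 enzymes carry a haem group, mostly sit in the membrane of the endoplasmic reticulum and take electrons from a P450 reductase, which in C. elegans is EMB-8. They insert an oxygen atom into small lipophilic molecules, foreign compounds as well as fatty acids and sterols. The cyp-35 genes are best known as intestinal genes that many foreign compounds induce, and knockdown of several cyp-35A genes is known to lower the fat stores of the animal. Among the others, cyp-35B1 is also called dod-13 and lies downstream of insulin receptor signalling, and the product of cyp-35D1 oxidises the drug thiabendazole in a pathway that needs the nuclear receptor NHR-176.

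Libraries of the 12 replicates held 95998037 to 115940062 counts in genes, so that 3 counts correspond to 0.0259 to 0.0313 CPM (counts scaled to a library of 1000000). Replicate 1 of each group came from 1 sequencing run and replicates 2 and 3 from 2 summed runs each. WT with mold replicates 3 and 1 and WT without mold replicate 1 stood most apart within their groups, with root mean square log2 differences from the other replicates of 0.577, 0.533 and 0.612, against 0.343 to 0.463 in the other libraries. None of the marker lists for intestine, muscle, neurons, epidermis, oocytes and sperm held a gene at 0 in all libraries of a group.

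All 10 genes lie on chromosome V of the WBcel235 build, in 5 places. From 3936326 to 3947044 on the plus strand, cyp-35A5, cyp-35B1, cyp-35B2 and cyp-35B3 follow each other within 10719 bases. Farther along the same strand come cyp-35A3 (4022609 to 4024475) and cyp-35A4 (4031619 to 4033446), which are 7143 bases apart. On the minus strand, cyp-35A1 (7359935 to 7361773) and cyp-35A2 (7362319 to 7364204) are neighbours with 545 bases between them. The remaining genes are not next to another member, cyp-35C1 at 13896663 to 13898488 on the minus strand and cyp-35D1 at 16069238 to 16071301 on the plus strand. In the Ensembl annotation of this build each gene had 1 transcript, and the gene structure followed the subfamily letters. The cyp-35A genes and cyp-35C1 had 7 exons, the cyp-35B genes 5 and cyp-35D1 had 6. The coding region was 494 codons long in the cyp-35A genes, 495 in cyp-35C1 and 499 in the cyp-35B genes and cyp-35D1. The cyp-35A genes are close copies of each other, and how reads that map to several copies were counted is not given in the sources used here, so values of a single cyp-35A gene may hold reads of another.

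Levels differed widely between the members. Per kilobase of exon, cyp-35A2 and cyp-35C1 led in all 4 groups, and their replicate ranges overlapped each other in each group. In animals without mold, cyp-35A2 averaged 29.5 ± 6.10 CPM per kb in ns889 and 16.8 ± 4.07 in WT, and cyp-35C1 averaged 24.9 ± 5.19 in ns889 and 14.2 ± 1.00 in WT (SD, n = 3 each). Together this pair made up 74.2 to 84.1% of the subfamily's level per kb in every library. Next without mold came cyp-35A3, at 5.52 ± 1.60 CPM per kb in ns889 and 4.0 ± 0.401 in WT, followed by cyp-35A5 and cyp-35D1, whose ranges overlapped, and then cyp-35A4. At the low end, cyp-35B1, cyp-35B2 and cyp-35A1 averaged 0.139, 0.0258 and 0.0725 CPM per kb in ns889 without mold and 0.112, 0.127 and 0.0608 in WT without mold. The lowest was cyp-35B3, with 1 read in 1 of the 12 libraries, WT without mold replicate 1. Among all 16980 genes tested, cyp-35A2 stood at percentile 75.8 of the level per kb in ns889 without mold and at 65.2 in WT without mold.

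**Figure D1:**
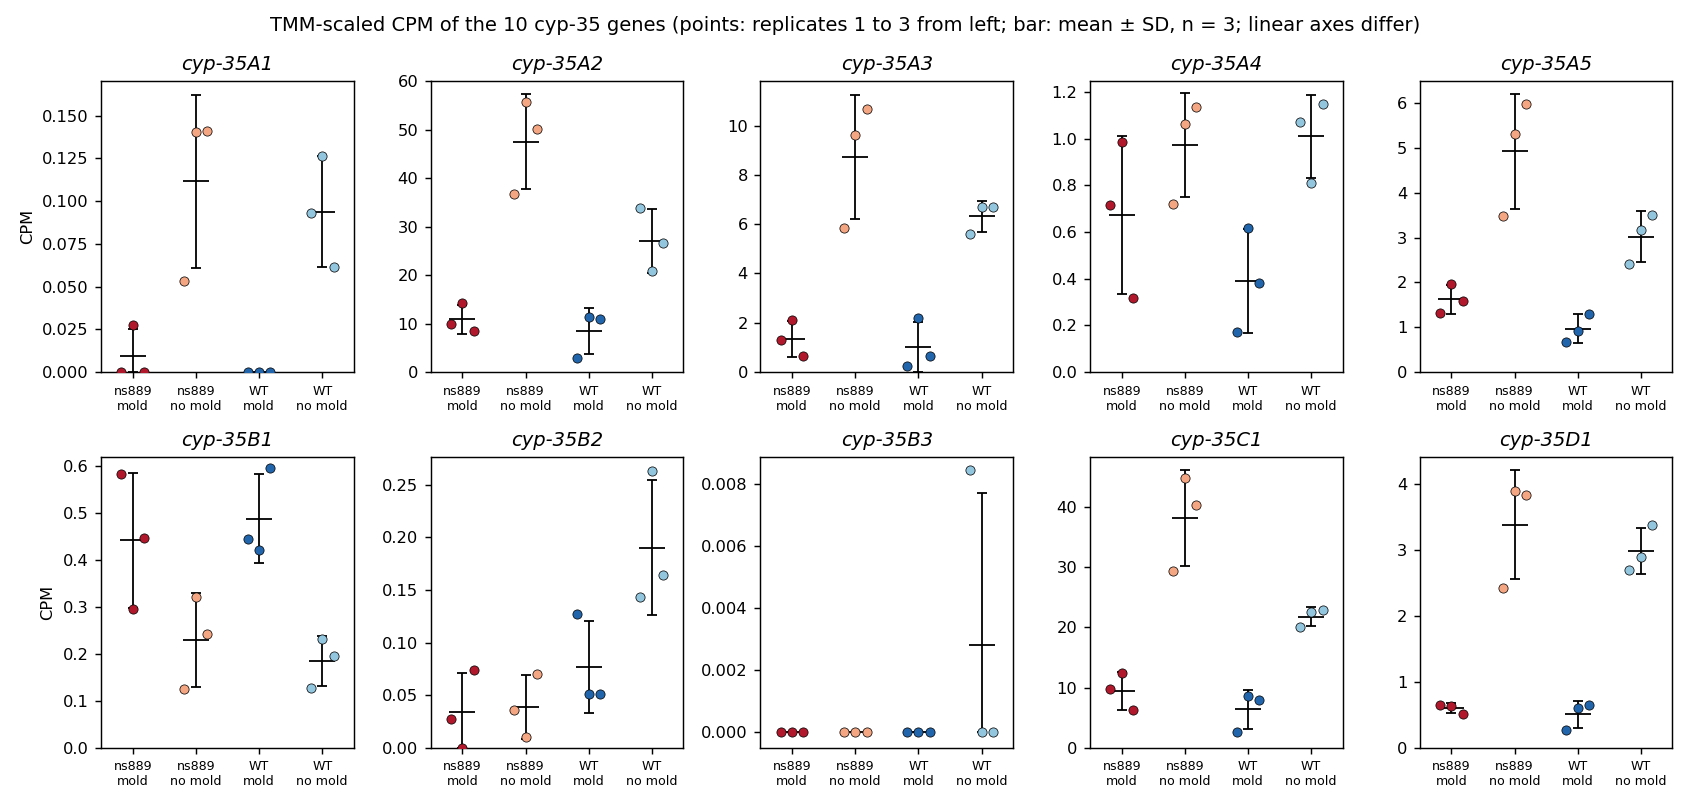
Level of each cyp-35 gene in every replicate, in TMM-scaled CPM, 1 panel per gene with its own axis; dots are replicates, horizontal lines group means and bars the SD (n = 3), cut at 0 where the SD exceeds the mean. In the panels of cyp-35A2, cyp-35A3, cyp-35A5, cyp-35C1 and cyp-35D1 the mold groups of both genotypes lie below the groups without mold, and cyp-35B1 lies the other way in WT.

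The central comparison asked how the genes differed between animals raised with and without the mold. In WT, 6 of the 9 tested members fell with mold, cyp-35A1, cyp-35A2, cyp-35A3, cyp-35A5, cyp-35C1 and cyp-35D1, and none rose at an adjusted p under 0.05 in edgeR's quasi-likelihood test. Over all genes tested in WT, 4.6% were called lower and 1.67% higher. In ns889, 5 of the 9 fell, cyp-35A2, cyp-35A3, cyp-35A5, cyp-35C1 and cyp-35D1, and none rose, beside 1.28% of all genes called lower and 1.86% called higher. The median log2 fold change of the 9 tested members was -1.69 in WT, where that of all tested genes was 0.0084, and -2.01 in ns889, where that of all tested genes was -0.019. Both medians stayed the same with cyp-35A1, which had no count in WT with mold, set at the value its counts allow. cyp-35B3 did not pass the filter on low counts, and cyp-35A1 passed with reads in the groups without mold almost alone, so its call is no independent support for the count. Unadjusted p-values under 0.05 were found for 8 members in WT and 7 in ns889, as for 24.6% of all genes in WT and 13.3% in ns889, and the only member with a positive log2 fold change in either genotype was cyp-35B1.

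The counts of called members depended on single libraries, and several adjusted p-values lay close to 0.05. In WT, 2 members were called when WT with mold replicate 3, WT without mold replicate 2 or WT without mold replicate 3 was left out, and 3 when any 1 was left out of the ns889 replicates raised without mold, which enter through the shared estimate of the spread. The share of all genes called in either direction in WT moved as well. It was 1.54, 1.05 and 0.923% without those WT libraries, against 6.27% with all replicates. Without any 1 of those ns889 replicates it was between 1.86 and 2.23%. Genes called lower numbered 103, 75 and 62 without those WT libraries and 171 to 212 without those ns889 replicates, against 781 with all replicates. In ns889, leaving out ns889 with mold replicate 1 or ns889 without mold replicate 2 gave 2 called members, and leaving out ns889 with mold replicate 3 gave 3. Of all genes 1.48, 1.21 and 2.43% were called in either direction in these fits, against 3.14% with all replicates. The genes called lower numbered 80, 81 and 162, against 218 with all replicates. Each time cyp-35A5 and cyp-35D1 were among those called, in both genotypes. The log2 fold changes of the 6 genes were negative in each of these fits.

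**Figure D2:**
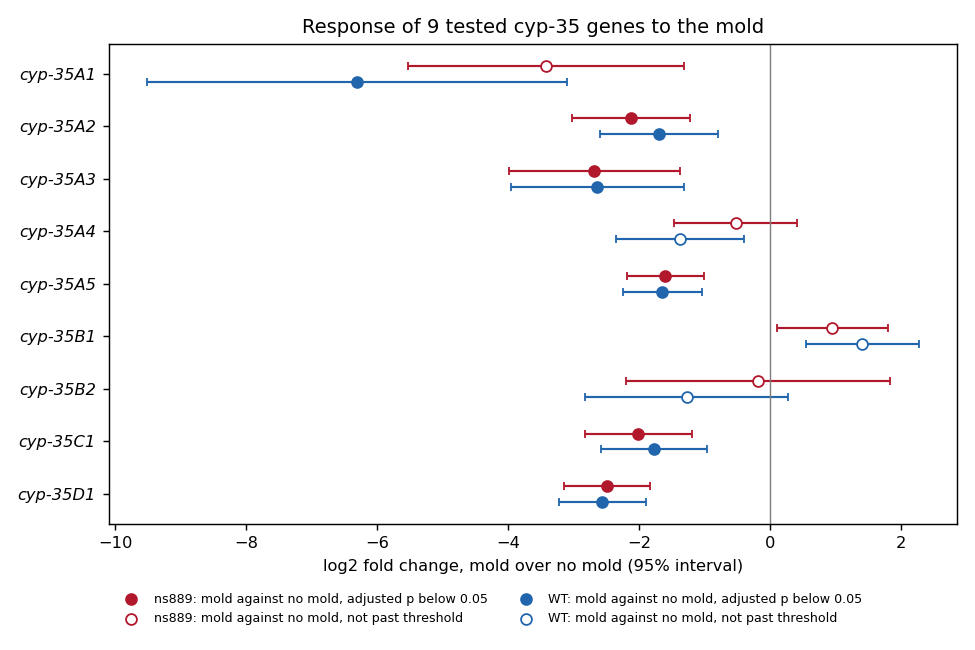
Log2 fold change of mold over no mold for the 9 tested members in ns889 and in WT, with bars for the 95% interval; filled points had an adjusted p below 0.05 and open points did not. In WT cyp-35A1 was at 0 counts with mold, so its point depends on the fit, and cyp-35D1 is the member with the smallest adjusted p in both genotypes.

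The lead pair, cyp-35A2 and cyp-35C1, carried most of the fall in reads. cyp-35A2, a gene induced by foreign compounds in the intestine, had 9.87, 14.3 and 8.53 CPM in the ns889 replicates with mold and 36.6, 55.8 and 50.1 CPM in those without. In WT it had 2.89, 11.3 and 10.97 CPM with mold and 33.9, 20.8 and 26.5 CPM without. All mold libraries thus lay below all libraries without mold in both genotypes, and WT with mold replicate 1 was the lowest of the 12. The log2 fold change was -2.12 ± 0.41 in ns889 (SE; edgeR adjusted p = 0.0157) and -1.69 ± 0.41 in WT (edgeR adjusted p = 0.0387). In WT the call was lost without any 1 replicate other than ns889 with mold replicate 2 and WT with mold replicate 1 (edgeR adjusted p of 0.053 to 0.136), and without replicate 1 of all groups the log2 fold change was -1.11. In ns889 it was lost without ns889 with mold replicate 1 or 3, or ns889 without mold replicate 2 (edgeR adjusted p of 0.0856, 0.0611 and 0.0695).

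cyp-35C1, a single-copy gene of the subfamily, had 9.72, 12.5 and 6.23 CPM in ns889 with mold and 29.4, 44.9 and 40.3 CPM in ns889 without. Its WT values were 2.56, 8.62 and 7.90 CPM with mold and 20.0, 22.5 and 22.8 CPM without. No mold library reached any library without mold. It fell by 2.01 ± 0.37 on the log2 scale in ns889 (SE; edgeR adjusted p = 0.0115) and by 1.78 ± 0.37 in WT (edgeR adjusted p = 0.0262). The call ended in WT without WT with mold replicate 3, WT without mold replicate 2 or WT without mold replicate 3, with edgeR adjusted p of 0.0607, 0.0893 and 0.102. It ended in ns889 without ns889 with mold replicate 1 or ns889 without mold replicate 2, with edgeR adjusted p of 0.0581 and 0.0541.

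The gene of the thiabendazole pathway, cyp-35D1, had 0.654, 0.637 and 0.511 CPM in ns889 with mold and 2.43, 3.90 and 3.83 CPM in ns889 without. In WT it had 0.263, 0.606 and 0.647 CPM with mold and 2.69, 2.89 and 3.38 CPM without. The highest mold library lay well under the lowest library without mold. cyp-35D1 fell by 2.49 ± 0.30 on the log2 scale in ns889 (SE; edgeR adjusted p = 0.000734) and by 2.57 ± 0.31 in WT (edgeR adjusted p = 0.000788). It passed in all 22 alternatives that tested it, in both genotypes.

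Among the middle-level cyp-35A genes, cyp-35A5 had 1.32, 1.97 and 1.59 CPM in ns889 with mold and 3.49, 5.32 and 5.98 CPM in ns889 without. Its WT replicates had 0.672, 0.924 and 1.30 CPM with mold and 2.41, 3.16 and 3.51 CPM without. Again the groups did not overlap in either genotype. The log2 fold change was -1.60 ± 0.27 in ns889 (SE; edgeR adjusted p = 0.00695) and -1.65 ± 0.28 in WT (edgeR adjusted p = 0.00939). It passed in 22 of 22 alternatives in ns889 and 21 of 22 in WT, where a fit of the WT groups alone gave an edgeR adjusted p of 0.0776.

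cyp-35A3 had 1.30, 2.11 and 0.659 CPM in ns889 with mold and 5.86, 9.64 and 10.7 CPM in ns889 without. In WT the values were 0.245, 2.18 and 0.637 CPM with mold and 5.59, 6.68 and 6.69 CPM without. WT with mold replicate 2 stood above the other mold replicates, yet none reached the level of a replicate without mold. Log2 fold changes were -2.69 ± 0.60 in ns889 (SE; edgeR adjusted p = 0.0321) and -2.64 ± 0.61 in WT (edgeR adjusted p = 0.0338). In ns889 the call was lost without any 1 replicate other than those of WT with mold (edgeR adjusted p of 0.0511 to 0.144). In WT it was lost without any 1 replicate of ns889 without mold (edgeR adjusted p of 0.0507 to 0.057), and without WT with mold replicate 3, WT without mold replicate 2 or WT without mold replicate 3 (0.125, 0.113 and 0.126).

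cyp-35A4 was the cyp-35A gene with the smallest log2 fold changes. Its levels were 0.718, 0.988 and 0.316 CPM in ns889 with mold and 0.719, 1.06 and 1.14 CPM in ns889 without, and these groups overlapped. WT replicates had 0.173, 0.616 and 0.380 CPM with mold and 1.07, 0.812 and 1.15 CPM without, with no overlap. Neither difference passed, at -0.53 ± 0.43 in ns889 (SE; edgeR adjusted p = 0.635) and -1.38 ± 0.45 in WT (edgeR adjusted p = 0.0804). In WT 2 alternatives gave a call, DESeq2 with an adjusted p of 0.0217 and the first sequencing run alone with an edgeR adjusted p of 0.0333.

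cyp-35A1 was close to the limit of detection. It had 0, 3 and 0 counts in the ns889 replicates with mold and 6, 14 and 14 in those without, and 0, 0 and 0 counts in WT with mold and 11, 12 and 6 in WT without. Reads of this gene were therefore nearly confined to libraries without mold. In CPM it was at least 9.48-fold lower with mold in WT, taking 3 counts over the group as the floor. In ns889 it was 11.9-fold lower, with an exact binomial 95% interval of 3.73 to 60.4 that covers counting error only. The edgeR adjusted p was 0.0991 in ns889 and 0.0382 in WT. In ns889 it passed in limma-voom (limma adjusted p = 0.0205) and without WT with mold replicate 3 and WT without mold replicate 1 together (edgeR adjusted p = 0.0458). The WT call was lost without ns889 with mold replicate 3, any 1 replicate of ns889 without mold, WT with mold replicate 2 or 3, or WT without mold replicate 2 or 3 (edgeR adjusted p of 0.0533 to 0.129).

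The cyp-35B genes were scarce, and none of them passed the test. cyp-35B1, the dod-13 gene, had 0.582, 0.295 and 0.446 CPM in ns889 with mold and 0.124, 0.321 and 0.242 CPM in ns889 without. WT replicates had 0.445, 0.421 and 0.596 CPM with mold and 0.127, 0.232 and 0.195 CPM without. In WT all mold libraries lay above all libraries without mold, while in ns889 the groups overlapped. The log2 fold change was 0.95 ± 0.39 in ns889 (SE; edgeR adjusted p = 0.301) and 1.41 ± 0.40 in WT (edgeR adjusted p = 0.0535). The WT difference passed under RLE scaling (edgeR adjusted p = 0.0467), in DESeq2 (adjusted p = 0.0142) and without replicate 1 of all groups (edgeR adjusted p = 0.0437). cyp-35B2 had 3, 0 and 8 counts in ns889 with mold and 4, 1 and 7 in ns889 without, and 14, 5 and 5 counts in WT with mold and 17, 25 and 16 in WT without. At this depth no difference could be shown for it, with log2 fold changes of -0.19 ± 0.93 in ns889 and -1.28 ± 0.71 in WT (SE; edgeR adjusted p = 0.95 and 0.278).

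Counting members whose replicates did not overlap between mold and no mold gave 8 lower and 1 higher in WT and 6 lower and none higher in ns889. Over all tested genes, 9.48% lay lower and 8.07% higher without overlap in WT, and 18.9% lay lower and 12.7% higher in ns889. The 8 in WT were the 5 cyp-35A genes, cyp-35B2, cyp-35C1 and cyp-35D1, and the higher gene was cyp-35B1. Of these, cyp-35A1 and cyp-35B2 passed the filter on low counts mainly with reads in libraries without mold. Their lower place with mold is thus no independent support for these counts.

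Summed over the 10 genes, the subfamily had 24.2, 32.8 and 18.4 CPM in ns889 with mold and 78.7, 121 and 112 CPM in ns889 without. WT replicates summed to 7.37, 24.7 and 22.5 CPM with mold and 66.0, 57.4 and 64.5 CPM without. The mean sum was 4.15-fold lower with mold in ns889 and 3.45-fold lower in WT. WT with mold replicate 1 had the lowest sum of all libraries, and the mold groups of both genotypes stayed under every group without mold. Since cyp-35A2 and cyp-35C1 made up most of the sum, it describes this pair more than the other 8 genes.

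The size of the mold difference was also read within replicate 1, which had a single sequencing run, and within replicates 2 and 3. For this, libraries of the same number were set against each other, although the numbers were not taken to pair the samples. Other pairings would give other sizes. For cyp-35A2 the log2 ratio of mold to no mold in replicates 1, 2 and 3 was -1.89, -1.96 and -2.55 in ns889 and -3.55, -0.88 and -1.27 in WT. For cyp-35A3 it was -2.17, -2.20 and -4.02 in ns889 and -4.51, -1.62 and -3.39 in WT. For cyp-35C1 it was -1.60, -1.85 and -2.69 in ns889 and -2.97, -1.38 and -1.53 in WT. Replicate 3 thus gave the largest difference in ns889 and replicate 1 in WT. For cyp-35A5 the ratios were -1.41, -1.44 and -1.91 in ns889 and -1.84, -1.77 and -1.43 in WT, and for cyp-35D1 they were -1.89, -2.61 and -2.91 in ns889 and -3.36, -2.25 and -2.38 in WT. For these 5 genes no mold library reached a library without mold of the same genotype, so every such ratio had to be negative. The shared direction is therefore no separate check of the 2 kinds of library, and no test could be made within replicate 1 alone. Without replicate 1 of any group, 6 members were called lower in WT and 4 in ns889, where cyp-35A3 lost its call (edgeR adjusted p = 0.123). In that fit 36.3% of all genes were called in either direction in WT and 2.84% in ns889, with 3304 and 202 genes lower. Without WT with mold replicate 1 the log2 fold changes in WT were -1.29 for cyp-35A2, -1.40 for cyp-35C1 and -2.25 for cyp-35D1. In that fit 6 members were called lower, beside 11.7% of all genes called in either direction, of which 1564 genes were lower.

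A further comparison asked whether ns889 animals differed from WT. Without mold, none of the 9 tested members passed, while 2.42% of all genes were called higher in ns889 and 0.453% lower. Unadjusted p-values under 0.05 were found for cyp-35A5, cyp-35B2 and cyp-35C1 in edgeR, as for 11.8% of all genes. cyp-35A2 and cyp-35C1 lay higher in every ns889 library without mold than in any WT library without mold, as 12.3% of all genes did, and cyp-35B2 lay lower in every ns889 library, as 5.97% did. cyp-35B2 passed the filter on low counts mainly with its reads in WT without mold, so its lower place in ns889 is no independent support. The mean sum of the subfamily without mold was 104 CPM in ns889 and 62.6 CPM in WT, a ratio of 1.66. With mold the mean sums were 25.1 CPM in ns889 and 18.2 CPM in WT, and again no member passed, beside 5.12% of all genes called higher and 1.61% lower. cyp-35A5 was the only member with an unadjusted p under 0.05 there, as found for 25% of all genes, and the only one whose ns889 and WT replicates with mold did not overlap, being higher in ns889 as were 17.9% of all genes. The median log2 difference between ns889 and WT over the 9 members was 0.31 without mold and 0.42 with mold.

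The mold responses of ns889 and WT were also compared directly. No member passed this test in edgeR and none had an unadjusted p under 0.05, which 4.44% of all genes had, while 0.0353% of all genes were called higher and 0.0942% lower in the difference. The response in ns889 minus that in WT was 0.076 on the log2 scale for cyp-35D1, with a 95% interval of -0.82 to 0.972, and 0.046 for cyp-35A5, with an interval of -0.78 to 0.872. For cyp-35C1 it was -0.235, with an interval of -1.34 to 0.874, and for cyp-35A2 it was -0.43, with an interval of -1.66 to 0.798. The interval of each of these genes includes 0 as well as differences in either direction, so equal responses were not shown. The intervals were -1.84 to 1.74 for cyp-35A3, -0.494 to 2.2 for cyp-35A4 and -1.66 to 0.75 for cyp-35B1. They were widest for the scarce genes cyp-35A1 (-1.48 to 7.24) and cyp-35B2 (-1.5 to 3.68).

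Other cytochrome P450 genes of the table were called higher with mold more often than lower. Of 65 others, 61 were tested, and 19 rose and 1 fell with mold in WT, while 10 rose and 1 fell in ns889. Over all genes 1.67% were called higher and 4.6% lower in WT, and 1.86% higher and 1.28% lower in ns889. The median log2 fold change of the other P450 genes was 0.26 in WT and 0.13 in ns889, where that of all tested genes was 0.0084 and -0.019. The most clearly changed were cyp-14A4, cyp-13A8, cyp-13A12 and cyp-33C2 in WT, with log2 fold changes of 5.31, 8.85, 6.05 and 6.33, and cyp-13A12, cyp-13A8, cyp-13B1 and cyp-29A4 in ns889, with 9.29, 6.81, 2.19 and 1.99. Summed per kb, the other P450 genes ranged between 342.8 and 385.7 CPM per kb in ns889 with mold, 285.9 and 304.7 in ns889 without, 491.8 and 588.8 in WT with mold and 270.8 and 293 in WT without. The cyp-35 share of the P450 level per kb was accordingly 3.83, 5.54 and 3.27% in ns889 with mold and 14.9, 20.6 and 18.95% in ns889 without. In WT it was 0.855, 2.59 and 2.81% with mold and 13.4, 11.1 and 12.55% without.

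**Figure D3:**
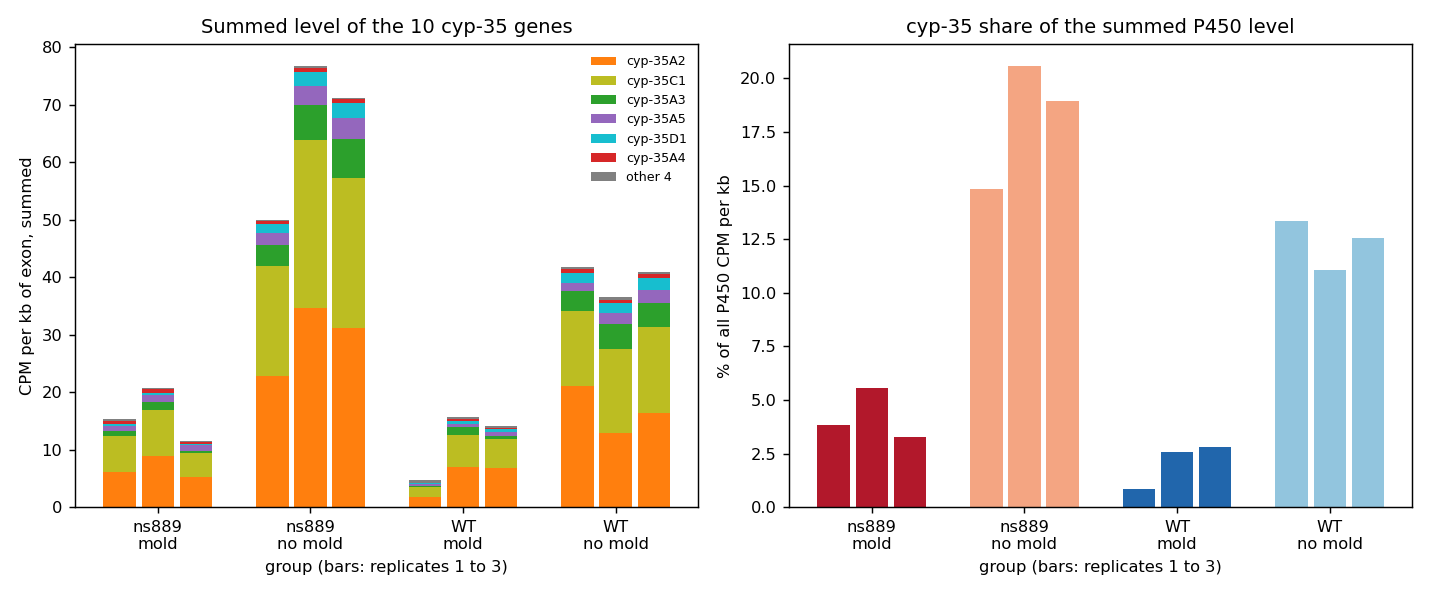
Left, level of the cyp-35 genes per kb of exon (CPM per kb), stacked by gene, and right, their share of the summed P450 level per kb in percent; each bar is 1 replicate, in the order 1 to 3 within a group. The stacks reach 11.6 to 20.8 CPM per kb in ns889 with mold, 49.9 to 76.7 in ns889 without, 4.66 to 15.6 in WT with mold and 36.5 to 41.7 in WT without, and most of each stack is cyp-35A2 and cyp-35C1.

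**Figure D4:**
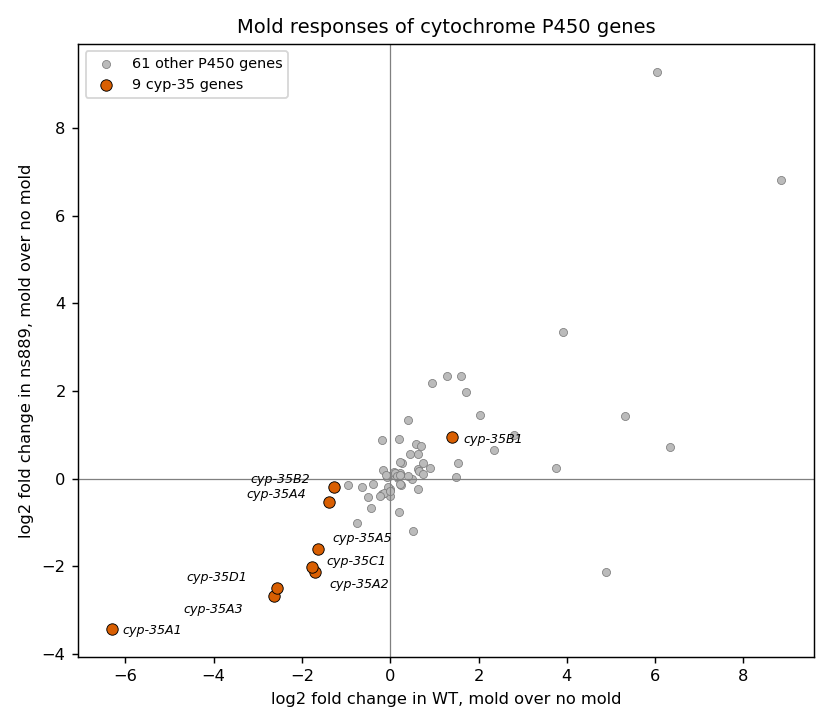
Log2 fold change of mold over no mold in ns889 (vertical axis) against that in WT (horizontal axis) for the 9 tested cyp-35 genes and 61 other P450 genes; each point is a gene. The cyp-35 genes other than cyp-35B1 lie at negative values in both genotypes, while the other P450 genes reach up to 9.29 in ns889 and 8.85 in WT.

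Genes that serve or regulate P450 enzymes were read beside the members. The calls with mold over all genes, for comparison, were 1.67% higher and 4.6% lower in WT and 1.86% higher and 1.28% lower in ns889. Of 10 genes for redox partners and haem handling, the reductase gene emb-8 rose in WT by 0.55 ± 0.077 on the log2 scale (SE; edgeR adjusted p = 0.00247), and its value in ns889 was 0.069 ± 0.077. The haem transporter gene hrg-4 fell in WT, at -1.02 ± 0.20. In ns889 none rose and 4 fell, the cytochrome b5 gene cytb-5.1 (-0.63 ± 0.12), hrg-7 (-0.89 ± 0.19), hrg-4 (-0.85 ± 0.20) and hrg-2 (-0.78 ± 0.19). Among 12 regulators, nhr-8, a nuclear receptor gene tied to resistance to foreign compounds, rose by 1.26 ± 0.16 in ns889, and by 1.33 ± 0.17 in WT, where skn-1, the gene of an oxidative stress regulator, also rose, by 0.33 ± 0.071. The Mediator subunit gene mdt-15, the insulin pathway factor gene daf-16 and ahr-1, the aryl hydrocarbon receptor gene, did not pass in either genotype. Among 9 tested genes linked to DAF-16, the glyoxylate cycle gene icl-1 rose in WT (0.59 ± 0.14) and dod-3 fell in ns889 (-1.91 ± 0.45), with no other calls.

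Markers of whole tissues were read for the same libraries, since the cyp-35 genes are known mainly from the intestine. Their calls stand beside 1.67% of all genes called higher with mold and 4.6% lower in WT, and 1.86% higher and 1.28% lower in ns889. Of 10 intestine markers, 1 fell in WT, mtl-2 (-1.07 ± 0.18), and in ns889 mtl-2 fell (-1.32 ± 0.18) and asp-1 rose (0.49 ± 0.11). The summed level of the 10 was 5123.8 to 5660.4 CPM in ns889 with mold and 4149.9 to 4413 CPM in ns889 without, and 4304.3 to 5426.3 CPM in WT with mold and 3819.9 to 4782.5 CPM in WT without. The sum was thus higher with mold in ns889, and its ranges overlapped in WT. Sperm markers did move in WT, where 13 of 58 tested fell and none rose, with a median of -0.63 against -0.30 in ns889, where none passed. Their sums were 1398.5 to 1579.6 CPM in ns889 with mold and 1713.3 to 1955.3 CPM in ns889 without, and 944.8 to 1605.7 CPM in WT with mold and 1583.7 to 2171.6 CPM in WT without. By the sums the mold groups thus lay lower without overlap in ns889, while the ranges overlapped in WT, so the shift was not confined to WT. None of 13 oocyte markers passed in either genotype, with medians of 0.21 in ns889 and 0.30 in WT, and none of the muscle, neuron and epidermis markers did. The 5 epidermis markers had a median log2 fold change of 0.98 in ns889 and -0.23 in WT. Among them the cuticle collagen genes bli-1 and rol-6 lay higher with mold without overlap in ns889, as 12.7% of all genes did. There bli-1 had 12.4 ± 4.0 CPM with mold and 4.88 ± 1.40 CPM without (SD, n = 3 each). For rol-6 the values were 4.66 ± 1.5 CPM with mold and 1.53 ± 0.87 CPM without. Their edgeR adjusted p were 0.213 and 0.236. The summed epidermis markers leaned the other way in ns889, at 2301.5 to 2734.2 CPM with mold and 2691.5 to 2851.5 CPM without, with overlapping ranges. bli-1 and rol-6 therefore do not stand for the 5 markers. In WT the sum was 2733.3 to 3074 CPM with mold and 2689.1 to 3027 CPM without. The part of the sperm and epidermis markers' shifts in the cyp-35 result was not tested.

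Among genes next to the members on chromosome V, most calls were upward. Within 10 kb of a member, 21 other genes were tested, and with mold 4 rose and none fell in WT, while 2 rose and 1 fell in ns889. Over all genes the calls were 1.67% higher and 4.6% lower in WT and 1.86% higher and 1.28% lower in ns889. K09D9.1, which lies between cyp-35A3 and cyp-35A4, averaged 4.30 ± 1.15 CPM in ns889 with mold and 0.868 ± 0.0515 CPM without, and 4.82 ± 3.61 CPM in WT with mold and 0.602 ± 0.185 CPM without (SD, n = 3 each). It rose by 2.31 ± 0.44 on the log2 scale in ns889 and by 3.00 ± 0.45 in WT (SE; edgeR adjusted p = 0.0128 and 0.00423), and lies on the same strand as cyp-35A3 and cyp-35A4. C49G7.7, on the far side of cyp-35A4, rose by 4.53 ± 0.80 in ns889 and 3.48 ± 0.71 in WT. It averaged 0.469 ± 0.179 CPM in ns889 with mold and 0.0186 ± 0.0178 CPM without, and 0.519 ± 0.440 CPM in WT with mold and 0.0457 ± 0.0226 CPM without. The level in ns889 without mold lay under the 0.0259 to 0.0313 CPM of 3 counts, so the size of these rises is uncertain. C49G7.7 passed the filter on low counts with reads in the mold groups almost alone, so its calls are no independent support for the counts of rising neighbours. The other rising neighbour in ns889 was K09D9.1. In WT cyp-34A5 (0.91 ± 0.21) and C49G7.10 (1.05 ± 0.26) rose as well, and in ns889 sptl-3, the serine palmitoyltransferase gene beside cyp-35C1, fell (-0.41 ± 0.092). nhr-176, a gene on the same strand with 23 bases between it and the end of cyp-35D1, averaged 7.67 ± 0.80 CPM in ns889 with mold and 6.95 ± 1.18 CPM without, and 8.11 ± 1.24 CPM in WT with mold and 6.91 ± 1.32 CPM without, and did not pass. cyp-35B1 and cyp-35B3 each overlap a non-coding RNA gene on the other strand, which had 0 counts.

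Over the 12 replicates, the profile of a member was compared with those of 9612 genes of at least 5 CPM by Pearson's r of log2(CPM + 0.5). ugt-22, a UDP-glucuronosyltransferase family gene, was the most alike to cyp-35C1 (r = 0.969), cyp-35A3 (0.961), cyp-35A2 (0.956) and cyp-35A4 (0.853). For cyp-35A2 and cyp-35C1 the next was gcsh-1 (0.95 and 0.938), and for cyp-35D1 the most alike were tag-10 (0.966), lact-6 (0.957) and ugt-8 (0.957). tag-10 also led for cyp-35A1 (0.927), and W09D10.5 (0.957) and mct-4 (0.949) led for cyp-35A5. The log2 fold change with mold of ugt-22 was -0.47 in ns889 (edgeR adjusted p = 0.0386) and -0.39 in WT (edgeR adjusted p = 0.0537), and that of tag-10 was -1.19 in ns889 and -0.94 in WT. ugt-8 (-2.50 in ns889 and -2.46 in WT) and lact-6 (-8.82 in ns889 and -8.18 in WT) were likewise lower with mold in both genotypes. At a mean of 6.69 CPM over the 12 libraries, such changes put lact-6 with mold near the limit of detection, so their size is uncertain. cyp-35B1 and cyp-35B2 had other genes at the top, F25B4.7 (0.923) and C29F5.1 (0.893). These coefficients describe the 12 libraries, in which the step between mold and no mold sets most of the spread, and they were picked as the highest of many.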

How the data were processed

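The authors deposited a table of raw counts per gene, with gene positions and exon lengths, made from stranded poly(A) libraries per the labels. FastQC 0.11.12, STAR 2.4a, featureCounts, edgeR 3.28.1, limma 3.42.2 and the WBcel235 genome are named in the submitters' processing notes; the sources used here do not give the strand and multi-mapping settings. Runs of a replicate were summed. Row IDs were matched to symbols for 44017 of 46904 genes. Counts were filtered with filterByExpr, TMM-scaled to CPM and fitted with edgeR 4.0.16 (R 4.3.3), quasi-likelihood with robust dispersion, as 4 group means over all 12 replicates. Benjamini-Hochberg adjustment ran over 16980 genes, with a threshold of 0.05, and errors of log2 fold changes are SE. The fit was also run on simulated counts whose spread followed the mean level of a gene. These held no libraries that stand apart, so they do not bear on calls that hinge on single libraries.

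Named were all 10 members, tested genes within 10 kb of them, the 3 genes most like each member over the replicates, and per list and comparison up to 4 passing genes of smallest p; some are left out for length. Members were matched by symbol, but the subfamily and the lists were chosen with earlier results of these data known, and the adjusted p-values were not taken over a list alone. Alternatives were RLE scaling, DESeq2 1.42.0, limma-voom (limma 3.58.1), other filters, the first run only, a replicate block, a fit of the compared groups alone, calls at an absolute log2 fold change of 1 or more, and fits without single replicates. A planned search for promoter motifs was not run, since no sequence was used here.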

Additional observations from a re-analysis of the deposited data

How the results depend on the processing

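Over the single members, 981 values under alternatives were computed for the 5 comparisons. Of these 912 stayed on their side of the threshold, 57 lost and 12 gained a call, and none of the calls changed sign. Many of the 912 belong to members and comparisons that had no call to lose, such as those between the genotypes. The calls themselves were less stable than the 912 make them look. With mold, cyp-35A2 in WT passed in 9 of 23 alternatives and cyp-35A3 in ns889 in 10 of 23, while cyp-35D1 passed in all 22 in both genotypes. In WT, the 6 members lower with mold became 3 with a filter of 5 CPM, 1 (cyp-35D1) in a fit of the WT groups alone and 3 when the WT libraries that stood most apart, replicate 3 with and replicate 1 without mold, were both left out. Of all genes 3.4, 0.508 and 22.5% were called in either direction in these fits, against 6.27% in the main fit. Leaving out single replicates gave 2 to 6 members, beside 0.923 to 27.9% of all genes called in either direction. In ns889, the 5 lower members became 3 without a filter, 2 with the filter of 5 CPM and 2 to 5 without single replicates. That filter takes cyp-35A5 and cyp-35D1 out of the test in both genotypes, since none of their group means reached 5 CPM. In ns889 cyp-35A3 stayed in the test and lost its call (edgeR adjusted p = 0.0501). Of all genes 2.16% were called in either direction in ns889 without a filter, 2.9% with the filter of 5 CPM and 1.21 to 4.7% without single replicates. The main fit had 3.14%. The count higher with mold in WT was 1 instead of 0, cyp-35B1, under RLE, in DESeq2 and without replicate 1 of all groups. In these fits 8.67, 13.5 and 36.3% of all genes were called in either direction. For ns889 against WT without mold, the count higher was 1 in a fit of those groups alone (cyp-35C1, edgeR adjusted p = 0.0495) and 1 without replicate 1 of all groups (cyp-35A2, edgeR adjusted p = 0.0329). Beside these, 1.98 and 4.18% of all genes were called in either direction, against 2.87% in the main fit. With mold, the count higher was 1, cyp-35A5, with the replicate block (edgeR adjusted p = 0.03), without both of those WT libraries (0.0227) and without replicate 1 of all groups (0.0415). There 6.4, 10.9 and 24.1% of all genes were called in either direction, against 6.73% in the main fit. The cause of these shifts was not tested.

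The replicate numbers are shared by the labels of all groups, but deviations of same-numbered samples from their group means correlated at -0.288 to 0.252, so the numbers were not taken to pair the samples. In ns889 with and without mold 6 of 6 samples correlated best with their own number, a hint from the data, and in WT 2 of 6 did. With the replicate block 4 members were lower with mold in WT, where cyp-35A1 and cyp-35A2 had edgeR adjusted p of 0.0672 and 0.0606, and 5 in ns889. Of all genes 1.84% were called in either direction in that fit in WT and 2.88% in ns889. Over all genes, the share called in either direction varied between alternatives from 0.508 to 36.3% for mold in WT and from 1.21 to 11.8% in ns889. Depth limits cyp-35A1, cyp-35B2 and cyp-35B3, whose counts per library were 25 or fewer.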
